A study of Mus musculus with 15 samples.

Results

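Vps36 and 8 further genes of the ESCRT machinery were examined in sorted mouse beta cells. The 9 genes were taken by name from 22924 genes with a usable value, namely Vps36, Vps25 and Snf8 of ESCRT-II, Tsg101 and Vps28 of ESCRT-I, Chmp2a and Chmp4b of ESCRT-III, and the ATPases Vps4a and Vps4b. Vps36 was chosen by its own values, being lower in cells with high aldehyde dehydrogenase activity (ALDH+) than in cells with low activity (ALDH-), so its values across these cells are given as a description, without a test. The question was whether the other 8 genes, called the partners here, followed it. All 9 passed the minimum level for testing, a mean of 1 FPKM (fragments per kilobase of transcript, scaled to sequencing depth).

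ESCRT complexes sort ubiquitinated membrane proteins into vesicles that bud into the endosome, which then fuses with the lysosome. ESCRT-I binds the cargo, ESCRT-II (Vps36, Vps25 and Snf8, whose protein is also called VPS22) links ESCRT-I to ESCRT-III, ESCRT-III filaments cut the membrane neck, and Vps4 takes the filaments apart. In secretory cells such as beta cells the same route carries surface receptors and surplus membrane to the lysosome.

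The promoters of Vps36, of its ESCRT-II partner Vps25, of the partner with the profile closest to that of Vps36 (Tsg101) and of the partner with the clearest difference between cre drivers (Chmp2a) are shown, since the libraries compared differ in FoxO genes and the genes of 1 complex could share promoter elements. Each run is the 250 bases before the start site, 5′ to 3′ on the gene's strand, from RefSeq on GRCm38.p6. The windows are chr8:22192583-22192832 (plus strand), chr11:101253457-101253706 (plus strand), chr7:46919970-46920219 (minus strand) and chr7:13034778-13035027 (minus strand). Capitals mark a CCAAT box in Vps25 (ATTGG, its reverse complement), an ETS core CCGGAAG in Tsg101 and an NRF1 core CGCATGCG in Chmp2a, none of which overlaps another.
Vps36: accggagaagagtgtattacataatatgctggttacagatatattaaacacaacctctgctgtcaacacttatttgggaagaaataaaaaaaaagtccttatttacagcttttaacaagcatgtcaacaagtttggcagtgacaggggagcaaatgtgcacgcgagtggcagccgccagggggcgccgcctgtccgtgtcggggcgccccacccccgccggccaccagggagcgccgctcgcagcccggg
Vps25: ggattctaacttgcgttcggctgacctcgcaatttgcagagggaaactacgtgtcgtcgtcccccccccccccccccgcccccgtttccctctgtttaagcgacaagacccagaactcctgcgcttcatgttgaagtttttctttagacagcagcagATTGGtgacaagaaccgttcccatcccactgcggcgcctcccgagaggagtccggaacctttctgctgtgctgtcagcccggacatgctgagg
Tsg101: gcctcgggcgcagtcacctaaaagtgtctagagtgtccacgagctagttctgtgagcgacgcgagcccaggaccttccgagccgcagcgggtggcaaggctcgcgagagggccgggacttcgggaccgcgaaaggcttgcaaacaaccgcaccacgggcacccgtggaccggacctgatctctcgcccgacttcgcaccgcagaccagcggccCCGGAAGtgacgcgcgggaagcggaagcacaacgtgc
Chmp2a: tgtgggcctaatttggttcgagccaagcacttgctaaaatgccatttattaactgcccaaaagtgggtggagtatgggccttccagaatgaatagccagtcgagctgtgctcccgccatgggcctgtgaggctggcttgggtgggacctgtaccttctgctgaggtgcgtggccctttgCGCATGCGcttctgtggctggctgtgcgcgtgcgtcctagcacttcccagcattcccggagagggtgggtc

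Promoters were found for 7 of the 9 genes. On both strands, the FoxO core GTAAACA was in 0 of these 7 windows and in 3.17% of 32851 mouse promoter windows of the same length. The ETS core, the NRF1 core and the CCAAT box were each in 1 of 7, against 6.91%, 1.55% and 33.85% of all windows. The E-box CACGTG, the YY1 core AAGATGGC and the TATA box TATAAA were in none of the 7, against 6.02%, 1.56% and 12.37% of all windows. The Vps36 window held none of these motifs, and no motif was shared by any of the 7 windows. A match, or its absence, says only which letters stand in the window.

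The libraries came from islets of mice on a mixed 129JC57BL/6 background in which Cre recombinase switched on red fluorescent protein (RFP), marking beta cells and cells derived from them. RFP+ cells were sorted with aldefluor, a fluorescent ALDH substrate, and poly-A RNA was sequenced. Control mice are labelled heterozygous for FoxO1, FoxO3 and FoxO4, and knockout (KO) mice are labelled as knockouts of all 3 of these transcription factors; the study's methods instead describe its Rip-cre controls as wild type at these genes, and give an age of 6 months for Rip-cre mice and several animals per genotype. Cre was driven by the insulin promoter (Rip-cre, 9 libraries) or by Pdx1 (Pdx-cre, 6 libraries), which acts in pancreatic precursors and so also marks other islet and exocrine cells. There were 3 control ALDH- libraries (1 and 2 Rip-cre, 3 Pdx-cre), 2 control ALDH+ (1 Rip-cre, 2 Pdx-cre), 5 KO ALDH- and 5 KO ALDH+ (1 to 3 Rip-cre, 4 and 5 Pdx-cre in both). Nothing in the labels says which libraries are separate animals, so p-values measure the spread between these libraries.

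Each table summed to between 7492010 and 10057827 estimated fragments. Foxo1 was at 12.04 to 20.1 FPKM in control and at 0.0925 to 4.25 in KO libraries, while Foxo3 overlapped between genotypes and Foxo4 was at most 1.34 in all 15 libraries. Aldh1a3, the enzyme behind the sort, was at 0.490 to 4.09 FPKM in ALDH- and at 22.1 to 76.9 in ALDH+ cells. Of 9 beta cell markers 7 had values in all libraries, led by Iapp at 33200 to 125100 FPKM, and Mafa, which marks mature beta cells, was low at 0.434 to 13.9. The insulin genes Ins1 and Ins2 lacked a usable estimate in 15 and 3 libraries, so neither enters the beta cell marker sum used below. Endothelial and stromal markers summed to at most 1.48 and 0.737 FPKM. Immune markers summed to 19.7 to 148.5 FPKM, nearly all of it Cd68, while Lyz2, Ptprc and Emr1 were at most 0.688. The 4 alpha cell markers summed to 9553 to 35850 FPKM in Pdx-cre ALDH- libraries and to 671.8 to 893.2 in Rip-cre ALDH- libraries. Acinar markers reached 1351 in control ALDH+ replicate 2, 645.1 in KO ALDH+ replicate 5 and 356.7 in KO ALDH- replicate 5, and at most 8.478 elsewhere. In bulk RNA such as this, fewer cells of a type and less RNA per cell cannot be told apart.

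Vps36, the ESCRT-II subunit that binds ubiquitin and membrane lipid, lies on chromosome 8 (mm9, 23303332 to 23329069). Vps25 and Snf8 lie on chromosome 11, and no gene locus in the files overlaps any of the 9. Levels are FPKM rescaled to put the libraries on 1 scale. Vps36 stood at 15.2, 13.6 and 24.7 in control ALDH- replicates 1 to 3, and at 2.57 and 5.84 in control ALDH+ replicates 1 and 2. It stood at 14.5, 10.05, 9.63, 10.1 and 10.3 in KO ALDH- replicates 1 to 5. In KO ALDH+ it stood at 12.6, 13.5, 10.1, 17.4 and 17.5. Both control ALDH+ libraries lay below each of the other 13, a pattern that 1.32% of the 11253 tested genes showed. The KO groups overlapped, with the KO ALDH+ mean of 14.2 ± 3.18 (SD, n = 5) above that of KO ALDH-, 10.9 ± 2.03 (SD, n = 5). Vps36 was thus low in ALDH+ cells of the control genotype, and was not low in ALDH+ cells of the knockout. The beta cell marker sum was also low in control ALDH+ cells, at 35370 and 71480 FPKM in replicates 1 and 2, against 83990 to 127900 in control ALDH-. Most of this sum was Iapp, at 33200 to 69600 in control ALDH+ and 81980 to 125100 in control ALDH-. The other beta cell markers with values overlapped between these groups, for instance Pdx1 (30.4 to 96.2 against 31.3 to 71.7) and Nkx6-1 (33 to 97.1 against 25.8 to 68.5). In KO the sum was 89370 to 115800 in ALDH- and 44370 to 99450 in ALDH+ cells, lowest in KO ALDH+ replicate 3, where Vps36 was at 10.1. The part of this in the differences of Vps36 and its partners was not tested.

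**Figure D1:**
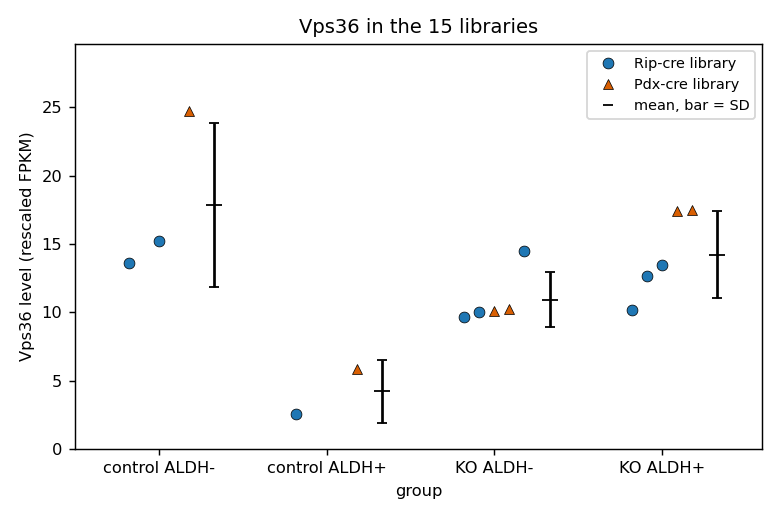
Vps36 level (rescaled FPKM, vertical axis) in each library of the 4 groups, with circles for Rip-cre, triangles for Pdx-cre libraries and a bar for the mean ± SD. Both control ALDH+ libraries, at 2.57 and 5.84, sit below the other 13, which lie between 9.63 and 24.7.

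The low values rest on few fragments. Control ALDH+ replicate 1 held 27 estimated Vps36 fragments, the fewest of any library, and the most were 224. The deposited intervals, which cover counting error within a library, ran from 1.64 to 3.69 FPKM in control ALDH+ replicate 1 and from 4.33 to 7.34 in replicate 2. The lowest interval among the other 13 libraries began at 7.83, in KO ALDH- replicate 5, above both. The 2 control ALDH+ libraries themselves did not overlap in these intervals.

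On the log2(rescaled FPKM + 1) scale, with cre driver in the model, Vps36 was lower by a log2 difference of -1.95 ± 0.289 (SE) in control ALDH+ than in control ALDH- cells. In KO cells the difference was 0.34 ± 0.199 (SE), toward ALDH+. Within Rip-cre libraries the control difference was -2.11 and within Pdx-cre libraries it was -1.91, with 1 ALDH+ library each. The KO difference was 0.0907 within Rip-cre and 0.72 within Pdx-cre. The control difference was below 0 within each cre driver, and without control ALDH+ replicate 1, the lower library, it was -1.62. These values describe the libraries that led to the choice of Vps36 and are no separate support for its difference. KO minus control was 1.64 ± 0.264 (SE) in ALDH+ cells, where the 5 KO libraries lay above both control libraries, as did those of 4.24% of genes. These contrasts share the control ALDH+ libraries that led to the choice of Vps36. In ALDH- cells, KO minus control for Vps36 was -0.66 ± 0.23 (SE), given without a test because it shares the control ALDH- libraries with that choice.

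The partners of Vps36 within ESCRT-II are Vps25, which reaches toward ESCRT-III, and Snf8. Vps25 was at 83.8, 125 and 143 rescaled FPKM in control ALDH- replicates 1 to 3 and at 73.7 and 119 in control ALDH+. Its KO values were 94.4 to 127 in ALDH- and 77.5 to 117 in ALDH+ cells. The groups overlapped in both genotypes. Snf8 was at 18.2, 20.2 and 27.6 in control ALDH- and at 12.7 and 30.4 in control ALDH+, where 1 library lay below and 1 above all 3 ALDH- libraries. Its KO values were 15.3 to 37.7 in ALDH- and 13.2 to 34.3 in ALDH+ cells. The control ALDH difference was -0.32 ± 0.243 (SE) for Vps25 (limma, adjusted p = 0.612). For Snf8 it was -0.22 ± 0.356 (SE; limma, adjusted p = 0.857). The 95% intervals ran from -0.84 to 0.19 for Vps25 and from -0.98 to 0.54 for Snf8. The Vps25 to Snf8 log2 ratio within a library, taken with the pseudocount of 1, differed by -0.163 between ALDH+ and ALDH- cells over both genotypes (exact permutation within genotype, two-sided, p = 0.375; 0.375 after adjustment over 2 ratios).

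Of the ESCRT-I genes, Tsg101 encodes the subunit that recognises ubiquitin and also the late motifs of budding viruses. Tsg101 was at 23.9, 19.8 and 22.6 rescaled FPKM in control ALDH- and at 9.34 and 17.3 in control ALDH+. Its KO values ran from 14.8 to 20.4 in ALDH- and from 14.2 to 21.3 in ALDH+ cells. As for Vps36, both control ALDH+ libraries lay below the 3 control ALDH- libraries, a split that 17.1% of tested genes showed, and the KO groups overlapped. The control difference for Tsg101 was -0.75 ± 0.262 (SE; limma, unadjusted p = 0.0109, adjusted p = 0.18) and the KO difference 0.02 ± 0.18 (SE; limma, adjusted p = 0.974). The difference between these differences was 0.77 in log2, which did not pass the test across all genes (limma, adjusted p = 0.998).

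Vps28, the ESCRT-I subunit whose tail contacts ESCRT-II, had a different pattern. It was at 112, 124 and 144 rescaled FPKM in control ALDH- and at 79.5 and 120 in control ALDH+. In KO ALDH- replicates 1 to 5 it was at 123.5, 152, 180, 158 and 139.5. In KO ALDH+ it was at 103.9, 122.9, 83.2, 121 and 103.5, with all 5 below the 5 KO ALDH- libraries, though the highest of the former and the lowest of the latter nearly met (122.9 and 123.5). That split held for 0.96% of tested genes. The KO difference for Vps28 was -0.49 ± 0.147 (SE; limma, unadjusted p = 0.00399, adjusted p = 0.202), and the difference averaged over genotypes was -0.445 ± 0.129 (SE; limma, adjusted p = 0.0537). The averaged difference was past the threshold without KO ALDH+ replicate 2 (-0.49, limma, adjusted p = 0.037). Without control ALDH+ replicate 2 it was -0.56, with only replicate 1, the lower library, left in that group. With the length trend described further on removed, it was -0.0774 by the lengths the files imply (limma, adjusted p = 0.805). By GENCODE lengths it was -0.317 (limma, adjusted p = 0.172).

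Chmp2a and Chmp4b encode ESCRT-III subunits, Chmp4b the main filament and Chmp2a a later subunit that recruits Vps4. Chmp2a was at 86.3, 124 and 153 rescaled FPKM in control ALDH- and at 73.3 and 105 in control ALDH+. Its KO values spread from 67.4 to 238 in ALDH- and from 57.4 to 172 in ALDH+ cells. Chmp4b was at 51.1, 39.2 and 54.3 in control ALDH- and at 20.9 and 47.4 in control ALDH+, and in KO at 38.0 to 59.6 in ALDH- and 25.4 to 52.2 in ALDH+ cells. For both genes the groups overlapped in each genotype. The control difference was -0.55 ± 0.317 (SE; limma, adjusted p = 0.474) for Chmp2a. For Chmp4b it was -0.67 ± 0.246 (SE; limma, unadjusted p = 0.0153, adjusted p = 0.209). Averaged over genotypes, Chmp4b differed by -0.46 ± 0.149 (SE, limma, adjusted p = 0.0818). Without control ALDH+ replicate 2 it differed by -0.63, with only replicate 1, the lower library, left in that group. With the length trend described further on removed, it differed by -0.316 by the lengths the files imply (limma, adjusted p = 0.259). By GENCODE lengths it differed by -0.241 (limma, adjusted p = 0.389).

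Vps4a and Vps4b are paralogs that encode the same kind of ATPase. Vps4a was at 18.3, 16.6 and 18.1 rescaled FPKM in control ALDH-. In control ALDH+ it was at 13.8 and 16.5, just below them, as for 17.1% of tested genes. In KO ALDH- it was at 19.0, 7.66, 23.7, 23.9 and 23.4, and in KO ALDH+ at 11.6 to 19.6. Vps4b was at 17.8, 20.3 and 15.3 in control ALDH- and at 21.1 and 20.8 in control ALDH+, both above them, as for 14.1% of tested genes. Its KO values were 17.5 to 24.3 in ALDH- and 17.6 to 20.9 in ALDH+ cells, and its 15 values spanned 1.59-fold, the narrowest range of the 9 genes, against 9.61-fold for Vps36. The control difference was -0.26 ± 0.361 (SE; limma, adjusted p = 0.821) for Vps4a. For Vps4b it was 0.24 ± 0.207 (SE; limma, adjusted p = 0.672). The Vps4b to Vps4a log2 ratio was higher by 0.311 in ALDH+ cells over both genotypes, which did not pass the test (exact permutation within genotype, two-sided, p = 0.129; 0.258 after adjustment over 2 ratios). Without KO ALDH- replicate 2, where Vps4a was at 7.66, the ratio differed by 0.437 (exact permutation, p = 0.00794). How reads shared by the 2 paralogs were counted is not given in the sources used here, so their ratio is uncertain in that respect.

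**Figure D2:**
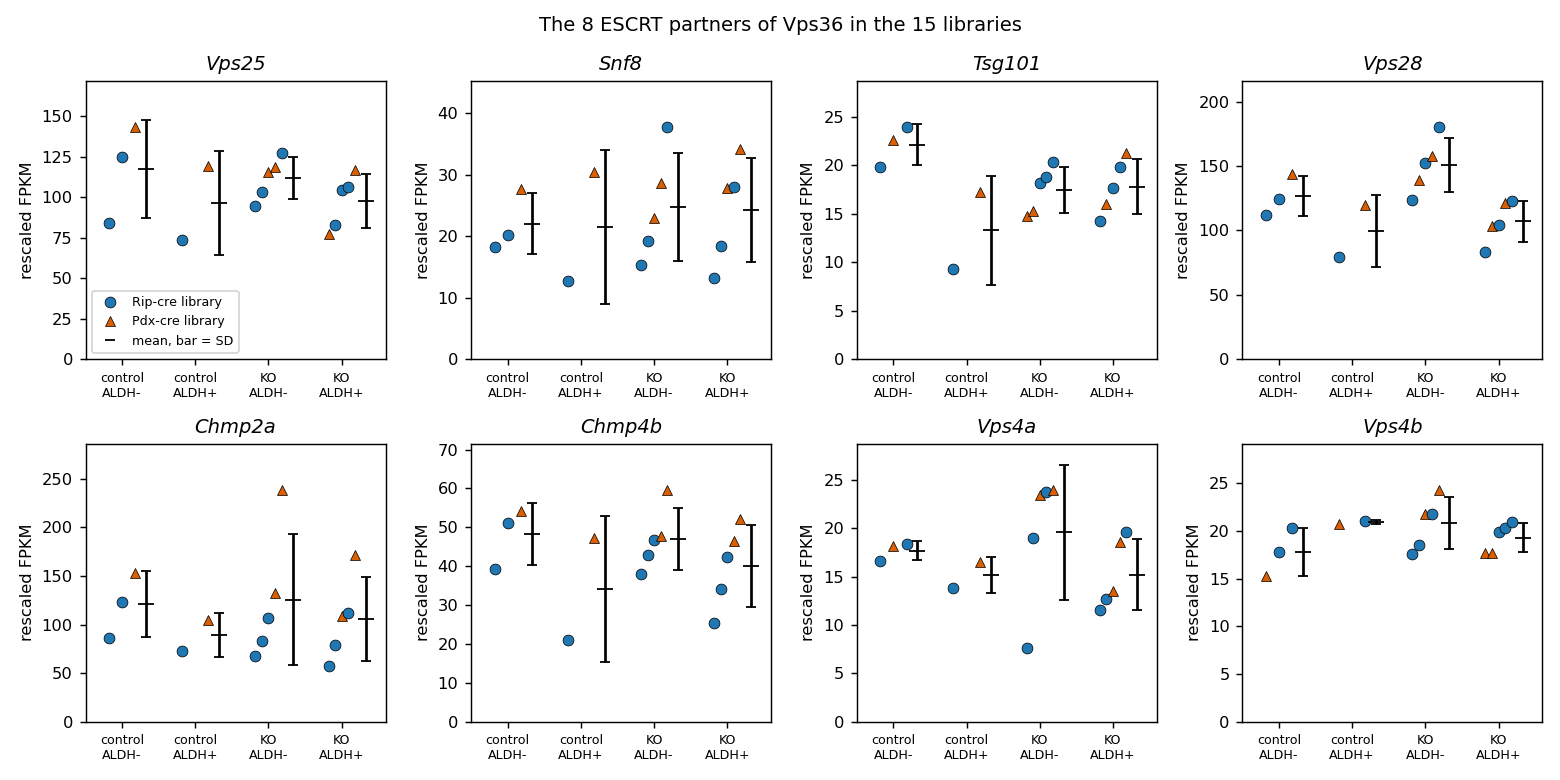
Levels of the 8 partners (rescaled FPKM, vertical axes, each from 0) in each library of the 4 groups, with circles for Rip-cre, triangles for Pdx-cre libraries and bars for the mean ± SD. Tsg101 in control ALDH+ cells (9.34 and 17.3) sits below control ALDH-, Vps28 in KO ALDH+ cells sits below KO ALDH-, and Vps4b stays between 15.3 and 24.3 throughout.

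Over the 8 partners, 0 passed the test between ALDH+ and ALDH- cells in control, in KO or averaged over genotypes (limma, Benjamini-Hochberg, adjusted p of at most 0.05). The background was 1.22% of tested genes called in control, 0.0178% in KO and 5.99% averaged (3.77% lower). The averaged share rests on control ALDH+ replicate 1, since the 674 genes behind it became 3, with 0 lower, when that library was left out. At an unadjusted p of 0.05, 2 partners were lower in control (Tsg101 and Chmp4b), 1 in KO (Vps28) and 3 averaged (Vps28, Chmp4b and Tsg101), against 14.3%, 13.1% and 20.8% of all tested genes in either direction. In each of these comparisons 7 of 8 differences were below 0, and the median over the partners was -0.36 in control, -0.20 in KO and -0.32 averaged, against -0.03, -0.01 and -0.02 over all tested genes. Leaving out control ALDH+ replicate 1 put the partner median at -0.21 in control and -0.20 averaged. Leaving out control ALDH+ replicate 2 instead put it at -0.58 and -0.35. The size of the control median thus depended on which of these 2 libraries was kept. None of the 8 had both control ALDH+ libraries below all other libraries, beside 1.32% of all tested genes. At so low a share, 0 of 8 says little about the partners. Vps36, which had this pattern, was chosen by its own values.

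**Figure D3:**
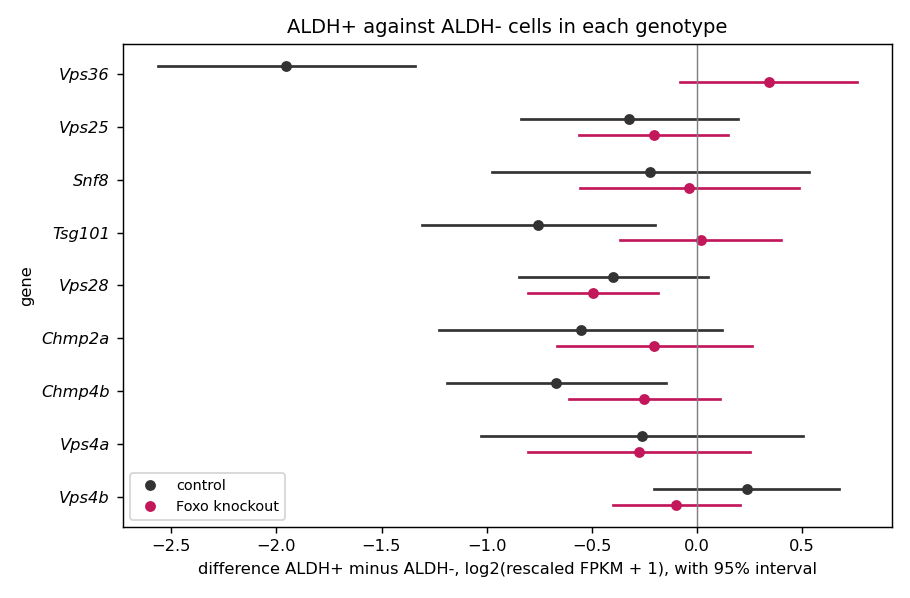
Difference between ALDH+ and ALDH- cells for the 9 genes, as log2(rescaled FPKM + 1) on the horizontal axis, with points for the estimate and lines for its 95% interval in control (dark) and KO (pink). Vps36 stands apart in control at -1.95 and lies at 0.34 in KO, while the partners lie between -0.75 and 0.24 in control and between -0.49 and 0.02 in KO. Since Vps36 was chosen by its own values, its position and interval are a description and no test.

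These small common differences moved with transcript length. In control, the median ALDH difference of all tested genes was -0.54 for 1353 genes of up to 1000 bases, -0.21 from 1000 to 2000 bases, -0.04 from 2000 to 4000, 0.14 from 4000 to 8000 and 0.37 for 540 genes over 8000 bases, by the length the files imply. By that length the members were mostly short, at 753 bases for Vps28, 799 for Chmp2a, 822 for Snf8, 955 for Vps25, 1190 for Vps36, 1557 for Chmp4b, 1809 for Tsg101, 2080 for Vps4a and 3409 for Vps4b. The longest GENCODE transcript was 3574 bases for Vps36, 2148 for Vps28, 1764 for Snf8 and 4633 for Vps4b, and was nearer to the implied length for the others. With the trend on length taken out of each library, the median over the 8 partners was 0.01 in control and -0.05 averaged over genotypes, and 0 partners passed the test. Tsg101 then stood at -0.61 and Chmp4b at -0.46 in control (limma, adjusted p = 0.437 and 0.519). Vps36 stood at -1.64, and at -1.95 with GENCODE transcript lengths in place of the implied ones.

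KO and control cells did not differ in any partner past the test. In ALDH- cells 0 of 8 were called, against 0.0178% of tested genes, with differences from -0.33 for Tsg101 to 0.23 for Vps28. In ALDH+ cells 0 of 8 were called, against 0% of tested genes, with differences from -0.12 for Vps4b to 0.44 for Tsg101. No partner reached an unadjusted p of 0.05 in either comparison (limma), where 5.78% and 6.6% of all tested genes did. In the test of whether the ALDH difference depended on genotype, 0 of 8 were called (0% of tested genes), and 1, Tsg101, was under an unadjusted p of 0.05 (limma), against 4.23% of all tested genes. These tests do not show that the groups were alike. The interval for Vps25, for instance, ran from -0.41 to 0.53 for KO minus control in ALDH+ cells, and that for Tsg101 from -0.07 to 0.95.

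The cre driver was the contrast in which partners passed the test. Chmp2a was higher in Pdx-cre than in Rip-cre libraries by 0.80 ± 0.183 in log2 (SE; limma, adjusted p = 0.0123), and Chmp4b by 0.51 ± 0.142 (SE; limma, adjusted p = 0.0335). These 2 of 8 partners compare with 5.68% of tested genes called higher in Pdx-cre libraries (9.73% in either direction), and 0 of 8 were called lower, against 4.05%. Chmp2a had a lowest, median and highest rescaled FPKM of 105, 143 and 238 in the 6 Pdx-cre libraries and of 57.4, 83.3 and 124 in the 9 Rip-cre libraries. Chmp4b had 46.5, 50.05 and 59.6 in Pdx-cre and 20.9, 39.2 and 51.1 in Rip-cre libraries. Both genes were shifted upward in Pdx-cre libraries, with ranges that overlapped at their ends. The Chmp4b call was lost without control ALDH+ replicate 2 (0.40, adjusted p = 0.11), without control ALDH+ replicate 1, control ALDH- replicates 2 and 3, KO ALDH- replicates 1 and 5 or KO ALDH+ replicates 1 and 5 (lowest 0.40, highest 0.56 in log2), each left out alone, and with the length trend removed (0.42, adjusted p = 0.0585), while that of Chmp2a held under each alternative that could be fitted.

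**Figure D4:**
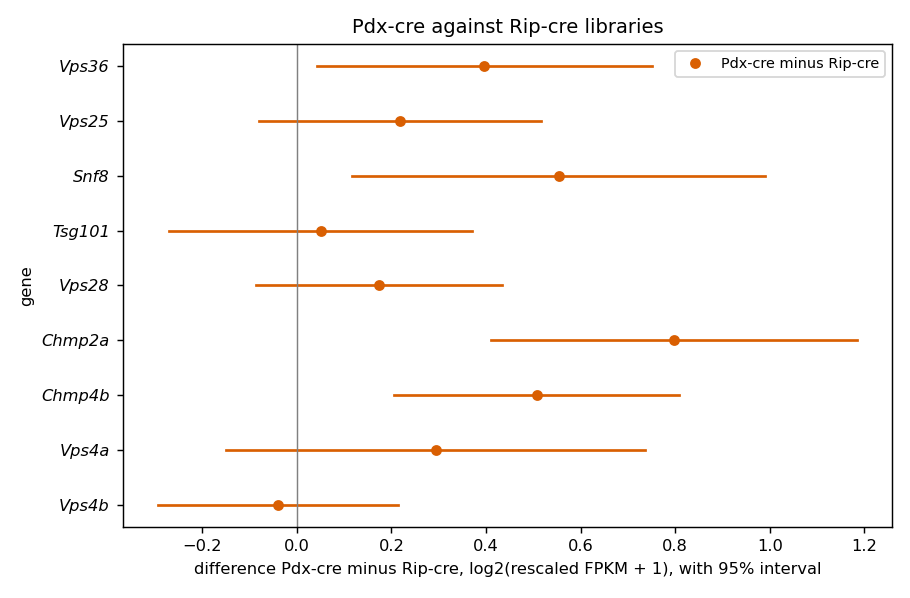
Difference between Pdx-cre and Rip-cre libraries for the 9 genes, as log2(rescaled FPKM + 1) on the horizontal axis, with points for the estimate and lines for its 95% interval. Chmp2a at 0.80 and Chmp4b at 0.51 passed the test, and Vps4b lies nearest to 0 at -0.04.

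Snf8 (0.55 ± 0.206, SE, limma, adjusted p = 0.102, and 0.683 with adjusted p = 0.0203 without KO ALDH- replicate 2) also had an interval above 0, and did not pass with all libraries. For Vps36 the difference was 0.40 ± 0.167 (SE), given without a test because it shares the libraries that led to the choice of that gene. Pdx-cre ALDH- libraries carried more marker RNA of other islet cells than Rip-cre ALDH- libraries. The delta cell markers summed to 8255 to 13650 against 414 to 1038 FPKM and the PP cell markers to 2988 to 18180 against 538.9 to 2175, beside the alpha cell values given above. In KO ALDH+ cells, the alpha cell markers summed to 276.7 and 605.1 FPKM in the 2 Pdx-cre libraries, inside the 156.8 to 1019 of the 3 Rip-cre libraries, while acinar markers summed to 0.2846 and 645.1 against at most 1.721 and duct markers to 198.1 and 715.4 against 153.3 to 168.7. The duct sum was mostly Spp1, at 142.7 to 696.5 FPKM in KO ALDH+ and at 100.5 to 426.6 in KO ALDH- cells. Of the other duct markers, Sox9 was at most 0.0451 and Krt19 at most 18.85 in KO ALDH+ cells. There Chmp2a was at 109 and 172 in Pdx-cre and at 111, 78.5 and 57.4 in Rip-cre libraries, and Chmp4b was at 46.5 and 52.2 against 34.3, 42.3 and 25.4. Control ALDH+ cells had 1 library per cre driver. Their alpha, delta and PP cell marker sums were 5829, 2990 and 4433 FPKM in Pdx-cre, against 318.4, 1008 and 375 in Rip-cre. Chmp2a was at 105 and Chmp4b at 47.4 in that Pdx-cre library, against 73.3 and 20.9 in the Rip-cre library. The part of the other cell types in the cre difference was not tested. The ALDH difference did not depend on cre driver past the test for any partner (0 of 8 called, 0% of tested genes, limma; 0 of 8 at an unadjusted p of 0.05, against 4.54%).

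Beyond the 9 genes, a wider list of 28 ESCRT genes held ESCRT-0, the other subunits of ESCRT-I and ESCRT-III, the Vps4 cofactor Vta1 and accessory proteins, of which 26 were tested (Mvb12b and Cep55 were below the minimum level). Between ALDH+ and ALDH- cells 0 of 26 passed in control, in KO or averaged (limma), beside 1.22%, 0.0178% and 5.99% of all tested genes. At an unadjusted p of 0.05 there was 1, Mvb12a in control (-1.24), beside 14.3% of all tested genes in control. The median over the 26 was -0.12 in control and -0.005 averaged. Between genotypes 0 of 26 passed in ALDH- or ALDH+ cells (limma), beside 0.0178% and 0% of all tested genes, with 2 and 1 under an unadjusted p of 0.05, where 5.78% and 6.6% of all tested genes were. Vps37a, a further ESCRT-I subunit, was lower in Pdx-cre libraries by a log2 difference of -0.65 ± 0.127 (SE; limma, adjusted p = 0.00513), the 1 call of the list in that contrast, beside 9.73% of all tested genes.

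Per length, the members fell into 2 ranges of level. Mean rescaled FPKM over the 15 libraries was 124.5 for Vps28, 113.2 for Chmp2a and 106.1 for Vps25, then 43.2 for Chmp4b, 23.6 for Snf8, 19.7 for Vps4b, 17.96 for Tsg101, 17.1 for Vps4a and 12.5 for Vps36. The ranges of neighbours in this order overlapped over the 15 libraries, except between Vps25, lowest at 73.7, and Chmp4b, highest at 59.6. Vps36 had the lowest mean level of the 9 and lay at percentile 57.2 of tested genes. Its ESCRT-II partner Vps25 lay at percentile 95.2, so the mRNAs of this complex were not at equal levels.

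The 5 genes with the profile closest to that of Vps36 over the 15 libraries were Pecr, an enzyme of peroxisomal fatty acid elongation, 2310036O22Rik, Carhsp1, an RNA-binding protein, Htra2, a protease of the mitochondrial intermembrane space, and Fis1, a mitochondrial and peroxisomal outer membrane protein. Likeness was the root-mean-square difference between log2 profiles centred on each gene's mean, which was 0.365 for Pecr and 0.404 for Fis1 and had a median of 0.776 over 11252 genes. Tsg101 ranked 17 of 11252 by this measure at 0.441, ahead of Chmp4b at rank 162. Vps25 ranked 1281, Vps28 1338, Snf8 1674, Chmp2a 2862, Vps4a 3453 and Vps4b 4864. The measure also reads the spread of a gene, and the libraries share depth and cre driver, so these ranks are a description.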

How the data were processed

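Poly-A RNA libraries (TruSeq) were sequenced, and per the labels reads were aligned to mm9 with TopHat2 2.0.4 after bcl2fastq 1.8.4. The authors deposited 1 gene table per library with FPKM and its interval, in the layout of Cufflinks; the version and annotation are not given in the sources used here. The authors tested counts, which were not used here. Of 23699 rows, repeated symbols and genes that lacked a usable estimate in some library were left out, which kept 22924 genes. Estimated fragments were taken from the width of each deposited interval, read as 2 SE.

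FPKM were rescaled by a trimmed mean of log ratios (30% and 5% trimmed; factors 0.918 to 1.05), a pseudocount of 1 was added before log2, and genes with a mean of at least 1 (11253) entered a linear model of the 4 groups with cre driver as covariate (limma 3.58.1, R 4.3.3; variance trend, two-sided, Benjamini-Hochberg). Fold changes on this scale understate changes of low genes. The test was checked on simulated data. Members, lists and motifs were chosen with earlier results of these data known. Named genes were the 9 members, up to 5 called genes per comparison of the other lists, and the 5 nearest profiles. Alternatives tried were other rescaling, pseudocount, filters, no cre driver, Rip-cre only, library weights, length trend removed, replicate blocks, 2 groups only and leaving out each library; GENCODE lengths were added after seeing the data. Intervals and fragments cover counting error only. Library values within groups correlated at 0.936 to 0.982 and no 2 libraries were identical.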

Additional observations from a re-analysis of the deposited data

Results flagged for a closer look

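Among 18 groups of 5 libraries tested for a single distant value (Dixon's ratio above 0.71), 2 were flagged, and chance flags about 1 in 20 groups. In KO ALDH- cells, Vps36 in replicate 1 was at 14.5 rescaled FPKM, above the other 4 libraries at 9.63 to 10.3 (ratio 0.849). In KO ALDH- cells, Vps4a in replicate 2 was at 7.66, below the other 4 at 19.0 to 23.9 (ratio 0.793). Without the first library the KO ALDH difference of Vps36 was 0.50 instead of 0.34.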

How the results depend on the processing

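For the 8 partners, the count called in ALDH+ against ALDH- cells averaged over genotypes was 0, and 1 (Vps28) with the filter at a mean of 5 or with library weights; leaving out single libraries gave 0 to 2. It stayed 0 in the other ALDH and genotype comparisons under each alternative. For the wider list the control count became 1 when only the 2 groups were fitted. Between cre drivers the partner count of 2 became 1 with FPKM as deposited, without a filter and with the length trend removed by either length, and 1 to 3 leaving out single libraries; the wider list's count of 1 became 2 with library weights, and 1 to 2 leaving out single libraries. The Vps4b to Vps4a ratio ranged from 0.247 to 0.437 leaving out single libraries, and the Vps25 to Snf8 ratio from -0.291 to -0.0354 and was 0.0882 within Rip-cre libraries, where the sign turned. The cause was not tested. The control difference of Vps36 ranged from -2.25 to -1.62 over 28 alternatives. Of 1967 single-gene values, 98 changed sign, 0 of them while called.

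Same-numbered libraries deviated together (correlation over 0.1) in 5 of 7 pairs, and in 0 of 7 with cre driver removed, so the numbers were not taken as pairs. This check cannot exclude pairing, least of all in control, where ALDH+ has 1 library per cre driver and little is left to correlate. The study's methods describe sorting both ALDH fractions from dispersed islets, and the labels do not say which libraries share a sort. The replicate block joined same-numbered libraries, which in control set ALDH- replicate 2 (Rip-cre) beside ALDH+ replicate 2 (Pdx-cre). With this block, 0 partners were called in the 3 ALDH comparisons, Vps29 and Vps35 were no longer called, and the Vps36 control difference was -2.18. With blocks kept within a cre driver, the Vps36 control difference was -2.05. Of all genes, 137 were called in control, 0 with the replicate block, 0 without the cre driver in the model, 1 with the length trend removed, 563 with library weights, and 0 to 245 leaving out single libraries (0 without any 1 control ALDH- library, 1 without control ALDH+ replicate 1, 9 without KO ALDH- replicate 1). Averaged over genotypes, 674 were called (424 lower), 3 (0 lower) without control ALDH+ replicate 1, 9 (6 lower) with the replicate block, 189 with the length trend removed, 185 without the cre driver in the model and 156 within Rip-cre libraries. With blocks kept within a cre driver, 1 gene was called in control and 262 averaged over genotypes (169 lower). Control ALDH+ has 2 libraries, 1 per cre driver, which limits every control comparison, and Vps36 fragments there are few.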

Other observations

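Retromer, the coat that returns receptors from endosomes to the Golgi and cell surface and so works beside ESCRT, was listed with 8 genes, and all were tested. Averaged over genotypes, Vps29 was lower in ALDH+ cells by a log2 difference of -0.70 ± 0.136 (SE, limma, adjusted p = 0.00878). Vps35, its scaffold, was lower by -0.50 ± 0.115 (SE, limma, adjusted p = 0.0197). So 2 of 8 were called lower against 3.77% of tested genes. That share was 424 genes, but 0 without control ALDH+ replicate 1, 6 with the replicate block and 169 with blocks kept within a cre driver. With the length trend removed Vps29 was at -0.37 (limma, adjusted p = 0.115) and Vps35 at -0.52 (limma, adjusted p = 0.031). The calls held under 21 and 20 of 27 alternatives, and both were lost without control ALDH+ replicate 1 (-0.71 and -0.49), while without control ALDH- replicate 2 or control ALDH+ replicate 2 that of Vps35 was lost (-0.47 and -0.50). The median over the 8 retromer genes was -0.25, beside -0.32 over the 8 ESCRT partners and -0.02 over all tested genes.

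HOPS and CORVET, which tether endosomes and lysosomes, were listed with 8 genes, and 0 of 8 were called for ALDH activity, genotype or cre driver (limma). Over all tested genes the called share was 1.22% in control, 0.0178% in KO and 5.99% averaged for ALDH, 0.0178% and 0% for genotype in ALDH- and ALDH+ cells, and 9.73% for cre driver. At an unadjusted p of 0.05 there were Vps8, lower in ALDH+ cells in control (-0.79) and averaged (-0.54), against 14.3% and 20.8% of all tested genes, and Vps33a, lower in KO ALDH- cells (-0.59), against 5.78%.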
